A study of Mus musculus with 48 samples.

Results

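The class I and class II histone deacetylases of the mouse are the products of the genes Hdac1 to Hdac10. They were taken by name from an RNA sequencing table of striatal cells: 10 genes of the 18178 with a symbol, and 10 of 10 were among the 13409 genes tested. STHdhQ111 cells carry the polyglutamine expansion of huntingtin that models Huntington's disease. The study treated them with compounds that include 2 inhibitors of enzymes in these classes, sodium butyrate and trichostatin A, called the inhibitors below. Selisistat and nicotinamide, also among the compounds, inhibit sirtuins, which are deacetylases of another class. RNA was read from 48 samples, 3 in each of 16 conditions, collected on 3 days. All values are log2 abundances that the authors computed. Counts were not given, and sequencing depth is therefore unknown.

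The cells were conditionally immortalized striatal progenitor lines of C57BL/6 origin. STHdhQ111 cells are homozygous for the knock-in expanded allele, and STHdhQ7 cells are wild type. Each genotype was 1 line, so genotype and line cannot be told apart. The vehicle control of each line spent 24 hours in serum-free medium. STHdhQ111 cells spent the same 24 hours in that medium with 1 of 14 compounds. Sodium butyrate was given at 1 mM and trichostatin A at 10 nM. Diacylglycerol kinase inhibitor II (DKI), selisistat, loxapine, meclizine and cyproheptadine were given at 10 uM, and pizotifen at 5 uM. Cysteamine was given at 250 uM, 4-deoxypyridoxine (DOP) at 4 mM and fingolimod phosphate at 250 nM. Nortriptyline was given at 1 nM, and nicotinamide and haloperidol at 0.5 nM. The 3 samples of a group were collected separately, each on its own day except that replicates 1 and 3 of DKI and of cyproheptadine share day 3, so the p-values below measure the spread between these samples.

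The cells' label was set beside markers. Of the 7 progenitor markers in the table, 6 reached a mean of 1, and Vim was the most abundant at 15.42 in the STHdhQ111 vehicle control. In that control Nes was at 4.96 and Sox2 at 4.81, above the table's floor of -2.34. In STHdhQ7 cells Nes was at 10.95 and Sox2 at 8.91. Among 12 neuron markers 4 reached that mean, Map2 was the most abundant at 8.40, and Rbfox3 at -2.13, Dcx at -1.86 and Drd1 at -2.18 lay near the floor. Among 10 glia markers 6 did, with Ptprc at 10.59, while Gfap at -0.95 and Aif1 at -2.18 were low. The table held 8 mesenchymal and endothelial markers, and 6 of them did, with Col1a1 the most abundant at 14.63, while Acta2 was at 4.57, Cdh5 at 0.24 and Thy1 at -0.20. The summed progenitor level, as 2 to the power of the values, was 42695, 42792 and 46692 in the STHdhQ111 and 48902, 53523 and 54583 in the STHdhQ7 vehicle control. With sodium butyrate it was 45240, 49604 and 45265, and with trichostatin A 37626, 37115 and 39674. In the STHdhQ111 vehicle control Vim alone made up 99.8% of this sum, so it says little of the other genes. In STHdhQ7 cells Nes was higher by 5.99 (adjusted p 4.62e-18), Sox2 by 4.10 (adjusted p 7.09e-22) and Pax6 by 2.59 (adjusted p 1.34e-18). Sodium butyrate raised Nes by 1.29 (adjusted p 0.0027) and Msi1 by 0.45 (adjusted p 7.86e-05). Msi1 rose by 0.36 with trichostatin A (adjusted p 0.00398). In the STHdhQ111 vehicle control Map2 made up 90.2% of the neuron sum, Ptprc 81.5% of the glia sum and Col1a1 61.3% of the mesenchymal and endothelial sum.

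The summed neuron level was 442, 383 and 315 in the STHdhQ111 control, 291, 603 and 565 in the STHdhQ7 control, 422, 421 and 459 with sodium butyrate, and 497, 427 and 426 with trichostatin A. The sum of glia markers was lower in every STHdhQ7 sample, at 607, 815 and 864 beside 1835, 2082 and 1758 in the STHdhQ111 control. Its most abundant gene there was Ptprc, at 10.59 in STHdhQ111 and 7.86 in STHdhQ7 cells, and the glia markers did not move together: Tmem119 was higher in STHdhQ7 cells by 1.24 (adjusted p 3.54e-10) and Aldh1l1 by 0.22 (adjusted p 0.00209), and Slc1a3 was lower by 0.90 (adjusted p 1.48e-07). The glia sum was 1907, 1920 and 1900 with sodium butyrate and 1962, 1912 and 1930 with trichostatin A. Behind it sodium butyrate raised Tmem119 by 0.98 (adjusted p 4.38e-07), Slc1a3 by 0.41 (adjusted p 0.0107) and Mbp by 0.25 (adjusted p 0.00127). Ptprc was not called there, at -0.20 (adjusted p 0.401). The mesenchymal and endothelial sum was 44233, 38523 and 42114 in the STHdhQ111 control, 31469, 41302 and 41014 in the STHdhQ7 control, 51053, 51435 and 47478 with sodium butyrate, and 38451, 33621 and 40274 with trichostatin A. Within this list Acta2 was higher in STHdhQ7 cells, at 11.13, by 6.56 (adjusted p 6.15e-16), and Col1a2 was lower, at 10.33 beside 13.03, by 2.69 (adjusted p 5.78e-26).

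With trichostatin A every progenitor sum lay below the 3 STHdhQ111 vehicle samples, and with sodium butyrate every mesenchymal and endothelial sum lay above them. Sums lay apart from the vehicle samples in both directions with other compounds too. The mesenchymal and endothelial sum was 21120, 25229 and 23161 with DKI, 28374, 28910 and 28693 with meclizine, 27028, 29160 and 25952 with cyproheptadine and 34927, 32179 and 33848 with pizotifen, all below the vehicle control. The progenitor sum was 28324, 34030 and 31532 with DKI, 38523, 36685 and 37406 with meclizine and 37336, 35399 and 35829 with cyproheptadine, again all below it. It was 51113, 51116 and 50420 with nicotinamide, 48854, 50922 and 47371 with nortriptyline, 50739, 51006 and 49993 with DOP and 50913, 53101 and 53153 with cysteamine, all above it. The glia sum was 1867, 1501 and 1173 with DKI, 1534, 1540 and 1385 with meclizine and 2255, 1338 and 1256 with cyproheptadine. With meclizine, loxapine (1628, 1361 and 1419), pizotifen (1587, 1546 and 1398), cysteamine (1668, 1572 and 1573), nicotinamide (1752, 1631 and 1648), selisistat (1678, 1710 and 1699) and DOP (1746, 1732 and 1704) it lay below every vehicle sample. The neuron sum was 323, 355 and 317 with DKI, 333, 355 and 358 with meclizine and 325, 319 and 281 with cyproheptadine, and with loxapine it lay below the vehicle samples, at 262, 286 and 284. Whether these sums bear on the results with these compounds was not tested.

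Sodium butyrate raised 2 of 6 progenitor markers tested, 2 of 4 neuron, 3 of 6 glia and 1 of 6 mesenchymal or endothelial markers against the vehicle control, beside 19.6% of all genes. Trichostatin A raised 1 of 6 progenitor and 1 of 4 neuron markers, beside 6.41% of all genes, and lowered 1 of 6 mesenchymal or endothelial ones, beside 6.68%. The part of these markers in the results below was not tested.

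Histone deacetylases remove acetyl groups from lysines of histones and other proteins, and the enzymes of classes I and II need zinc. Class I enzymes work in the nucleus, mostly inside corepressor complexes, while class IIa enzymes move between nucleus and cytoplasm and bind transcription factors such as MEF2. Class IIb holds HDAC6, which deacetylates tubulin, and HDAC10, which deacetylates polyamines. Sodium butyrate, a short-chain fatty acid, is an inhibitor of class I and IIa enzymes, and trichostatin A, a hydroxamic acid, of class I and II enzymes. Inhibitors of this kind have been studied in models of Huntington's disease.

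Levels between genes were compared per kilobase of exon, as 2 to the power of the value divided by the length. In the STHdhQ111 vehicle control Hdac1 stood at 501 on this scale, followed by Hdac2 at 267, Hdac3 at 189 and Hdac5 at 128. Hdac6 at 113 and Hdac7 at 109 overlapped between samples. Below them came Hdac10 at 61.5, Hdac8 at 26.1, Hdac4 at 13.8 and Hdac9 at 0.651. The other neighbours in this order did not overlap. In the STHdhQ7 vehicle control Hdac7 at 138 lay above Hdac6 at 108. Hdac4 at 19.7 came before Hdac8 at 18.9, with overlapping samples, and the order was otherwise the same. Hdac3 at 179 and Hdac5 at 167 overlapped there. Hdac9 stood at 2.05. Class I made up 69.8% ± 0.384 (SD, n = 3) of the members' summed level per kilobase in the STHdhQ111 vehicle control and 65.1% ± 0.730 (SD, n = 3) in the STHdhQ7 one. Class IIa made up 17.8% ± 0.248 (SD, n = 3) and 23.0% ± 0.623 (SD, n = 3). With sodium butyrate the class I share was 71.6% ± 0.998 (SD, n = 3), and with trichostatin A 71.5% ± 0.541 (SD, n = 3). Such a share was not particular to the inhibitors: it was 71.5% ± 0.822 (SD, n = 3) with fingolimod phosphate and 70.9% ± 0.279 (SD, n = 3) with meclizine, while the lowest over the other 12 compounds was 67.7% ± 0.609 (SD, n = 3), with loxapine.

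The level of Hdac1 is uncertain, because 35.3% of the 50-base words of its exons, the length of the reads, also occur on the same strand of other genes. Of its 3536 words, 1121 are in Gm10093 (ENSMUSG00000061062), which has no symbol in the table and was not among the genes tested. Gm10093 was measured at 9.81, 9.73 and 9.84 in the vehicle control. For that reason the Hdac1 results below are given beside those for both genes summed, an alternative chosen after the data were seen. Hdac2, Hdac3, Hdac6, Hdac7, Hdac8, Hdac9 and Hdac10 shared 0 words on the same strand, Hdac4 0.552% and Hdac5 0.642%. Counting both strands, Hdac4 shared 21.6% of its words, largely with the antisense gene Gm26720, whose vehicle level of 0.14 was low, and whether the counting used the strand is not stated.

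Sodium butyrate was compared with the STHdhQ111 vehicle control, the first question being whether an inhibitor of some of the enzymes changed the transcripts of the members. Of all genes tested 37.5% passed an adjusted p of 0.05, 19.6% higher and 17.8% lower, with limma. None of the members did: 0 of 10 were called, and 2 of 10 had an unadjusted p under 0.05. The median absolute log2 difference was 0.08 over the members and 0.13 over all genes tested. In bulk RNA a change in the number of cells of a kind and a change in RNA per cell cannot be told apart.

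Hdac10 (ENSMUSG00000062906, chr15:89123307-89128700 in GRCm38, minus strand) was at 7.61, 7.72 and 7.76 in the vehicle control and at 7.50, 7.49 and 7.55 with sodium butyrate. Every treated sample lay below every control sample. The log2 difference was -0.19 (SE 0.0792, 95% interval -0.35 to -0.02), with an adjusted p of 0.0625 from limma, so it missed the threshold. The differences within the 3 days were -0.12, -0.23 and -0.21. Without vehicle replicate 1 the difference became -0.23 and passed, at an adjusted p of 0.0478.

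Hdac6 (ENSMUSG00000031161, chrX:7930120-7947889, minus strand) was at 9.36, 9.33 and 9.38 in the vehicle control and at 9.15, 9.34 and 9.22 with sodium butyrate. The groups overlapped through replicate 2 of the treatment. The log2 difference was -0.12 (SE 0.0526), with an adjusted p of 0.071, and without that sample it was -0.17, with an adjusted p of 0.0213. Hdac1 (ENSMUSG00000028800, chr4:129516104-129542713, minus strand) was at 10.74, 10.73 and 10.79 in the control and at 10.78, 10.79 and 10.80 with sodium butyrate. These groups overlapped and the log2 difference was 0.04, with an adjusted p of 0.604. Gm10093 alone had a log2 difference of 0.23, with an adjusted p of 0.0114, and both summed 0.11, with an adjusted p of 0.0843. Among all 10 members the 95% intervals of the log2 differences reached down to -0.35 for Hdac10 and up to 0.20 for Hdac2. Missing the threshold does not show that there was no difference.

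**Figure D1:**
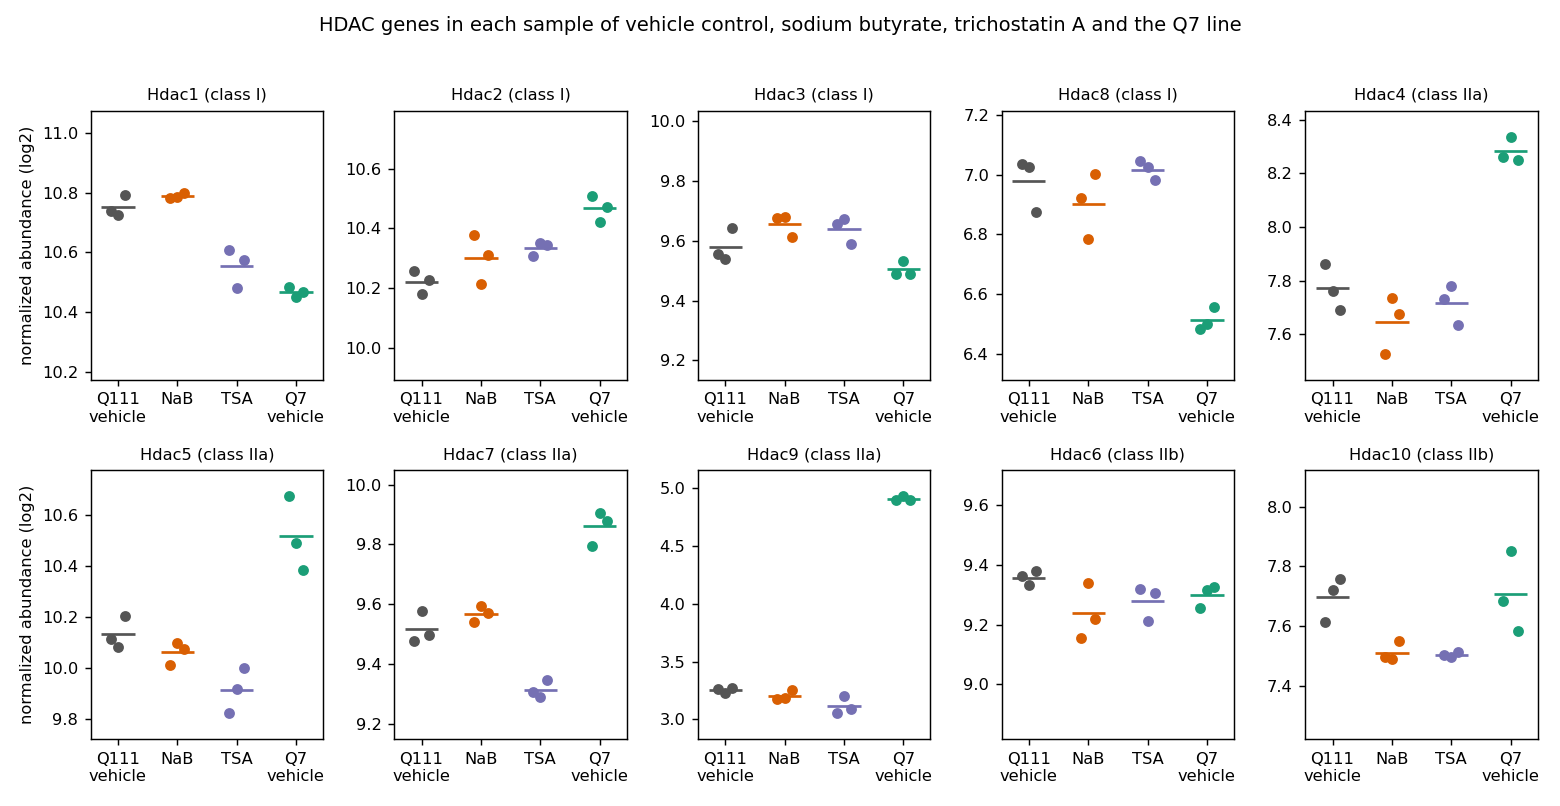
Log2 abundance (vertical axis) of each member in every sample of the STHdhQ111 vehicle control, sodium butyrate, trichostatin A and the STHdhQ7 vehicle control, with points for samples and bars for means of 3. Hdac9 lies between 4.90 and 4.93 in STHdhQ7 cells and between 3.05 and 3.27 in the other groups drawn, and Hdac7 with trichostatin A lies below every vehicle sample.

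Trichostatin A was compared with the same vehicle samples, so its comparison and that of sodium butyrate share their control. Of all genes tested 13.1% were called, 6.41% higher and 6.68% lower. Of the members 2 of 10 were called, both lower, and 4 of 10 had an unadjusted p under 0.05. The median log2 difference was -0.11 over the members and 0.00 over all genes tested, and the median absolute ones were 0.13 and 0.08.

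Hdac7 (ENSMUSG00000022475, chr15:97792664-97844502, minus strand), a class IIa gene, was at 9.48, 9.58 and 9.50 in the vehicle control and at 9.31, 9.29 and 9.35 with trichostatin A. The groups did not overlap. Hdac7 fell, with a log2 difference of -0.20 (SE 0.0475, 95% interval -0.30 to -0.11; adjusted p 0.00309). Within the days the differences were -0.17, -0.29 and -0.15.

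Hdac1, a catalytic subunit of the SIN3, NuRD and CoREST complexes, was at 10.61, 10.48 and 10.57 with trichostatin A, all below the vehicle samples. The log2 difference was -0.20 (SE 0.0518, 95% interval -0.30 to -0.09; adjusted p 0.00849). Within the days it was -0.13, -0.24 and -0.22. Without trichostatin A replicate 2 the difference was -0.16, with an adjusted p of 0.068. Summed with Gm10093 it was -0.14, with an adjusted p of 0.0406. Gm10093 alone differed by -0.05, with an adjusted p of 0.725. When only the 6 samples of this comparison were fitted, neither Hdac1, at an adjusted p of 0.0762, nor Hdac7, at 0.0754, passed.

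Hdac5, a class IIa gene (ENSMUSG00000008855, chr11:102194432-102230166, minus strand), was at 10.12, 10.08 and 10.20 in the vehicle control and at 9.82, 9.92 and 10.00 with trichostatin A. The groups did not overlap, but the log2 difference of -0.22 (SE 0.0769) missed the threshold, with an adjusted p of 0.0536. Within the days it was -0.29, -0.16 and -0.20. Without trichostatin A replicate 3 it was -0.26, with an adjusted p of 0.0382. Hdac5 was at a mean of 9.91 with fingolimod phosphate and 10.04 with haloperidol, compounds collected in the same slots as trichostatin A, and against these 2 the log2 difference was -0.06 (adjusted p 0.619). Hdac10 was at 7.50, 7.50 and 7.51 with trichostatin A, all below the vehicle samples, and its log2 difference of -0.19 had an adjusted p of 0.105. For Hdac2, the partner of Hdac1 in the same complexes, the 3 treated samples at 10.31, 10.35 and 10.34 lay above the vehicle samples at 10.26, 10.18 and 10.23. That log2 difference of 0.11 had an adjusted p of 0.206.

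The inhibitors were also set against each other. Their doses differ by design, so compound and dose cannot be told apart in this comparison. Of all genes tested 23.7% were called, and 2 of 10 members, both higher with sodium butyrate. Hdac7 had a log2 difference of 0.25 (SE 0.0475, 95% interval 0.16 to 0.35; adjusted p 0.000161). Hdac1 had 0.23 (SE 0.0518, 95% interval 0.13 to 0.34; adjusted p 0.00103), and 0.25 when summed with Gm10093, with an adjusted p of 0.000237. No sample of either gene overlapped between the treatments. Hdac10 differed by 0.01, with a 95% interval of -0.15 to 0.17.

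On each day the vehicle control was collected in another time slot than the inhibitors, so each inhibitor was also compared with some of the compounds collected in its own slots. For this the compounds given at nanomolar doses were used. Others of the same slots, which are loxapine, DOP and cysteamine for sodium butyrate and meclizine and pizotifen for trichostatin A, were not used in it. Whether nicotinamide inhibited sirtuins at its dose of 0.5 nM was not tested. Sodium butyrate was set against this compound and nortriptyline. There 30.8% of all genes tested were called, 17.0% higher and 13.8% lower, and 2 of 10 members, 1 higher and 1 lower. Hdac1 was at 10.57, 10.63 and 10.48 with nicotinamide and at 10.56, 10.65 and 10.59 with nortriptyline, all below the sodium butyrate samples. It was higher with sodium butyrate by 0.21 (SE 0.0449, 95% interval 0.12 to 0.30; adjusted p 0.000495), and by 0.20 when summed with Gm10093, with an adjusted p of 0.000268. Against the vehicle control the same gene was not called.

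Hdac10 was at 7.61, 7.84 and 7.59 with nicotinamide and at 7.91, 7.56 and 7.71 with nortriptyline, all above the sodium butyrate samples. It was lower with sodium butyrate, at a log2 difference of -0.19 (SE 0.0686, 95% interval -0.33 to -0.05; adjusted p 0.0311). The call was lost when single samples were left out. Without sodium butyrate replicate 1 the difference was -0.18, with an adjusted p of 0.103, and without replicate 2 it was -0.18, with an adjusted p of 0.111. Without nicotinamide replicate 2 it was -0.15, with an adjusted p of 0.0991, and without nortriptyline replicate 1 it was -0.14, with an adjusted p of 0.108.

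Trichostatin A was set against fingolimod phosphate and haloperidol. Of all genes tested 14.4% were called, 8.08% higher and 6.32% lower, and 2 of 10 members, both lower. Hdac7 was at 9.47, 9.41 and 9.34 with fingolimod phosphate and at 9.53, 9.57 and 9.52 with haloperidol. Fingolimod phosphate replicate 3 overlapped with the trichostatin A samples. The log2 difference was -0.16 (SE 0.0411, 95% interval -0.24 to -0.08; adjusted p 0.00613), and without trichostatin A replicate 1 it was -0.15, with an adjusted p of 0.0594. Hdac1 differed by -0.08 (95% interval -0.17 to 0.01), with an adjusted p of 0.25, and by -0.06 when summed with Gm10093.

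Hdac9, a class IIa gene, was at 3.05, 3.20 and 3.09 with trichostatin A, at 3.25, 3.19 and 3.44 with fingolimod phosphate and at 3.29, 3.93 and 3.24 with haloperidol. Haloperidol replicate 2 stood above the rest, and fingolimod phosphate replicate 2 overlapped with the treatment. The log2 difference of -0.28 (SE 0.0883) had an adjusted p of 0.0288. Without haloperidol replicate 2 it was -0.16, with an adjusted p of 0.0975, and without fingolimod phosphate replicate 3 -0.24, with an adjusted p of 0.0756. Without trichostatin A replicate 1 it was -0.26, with an adjusted p of 0.158, and without replicate 3 it was -0.26, with an adjusted p of 0.102.

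**Figure D2:**
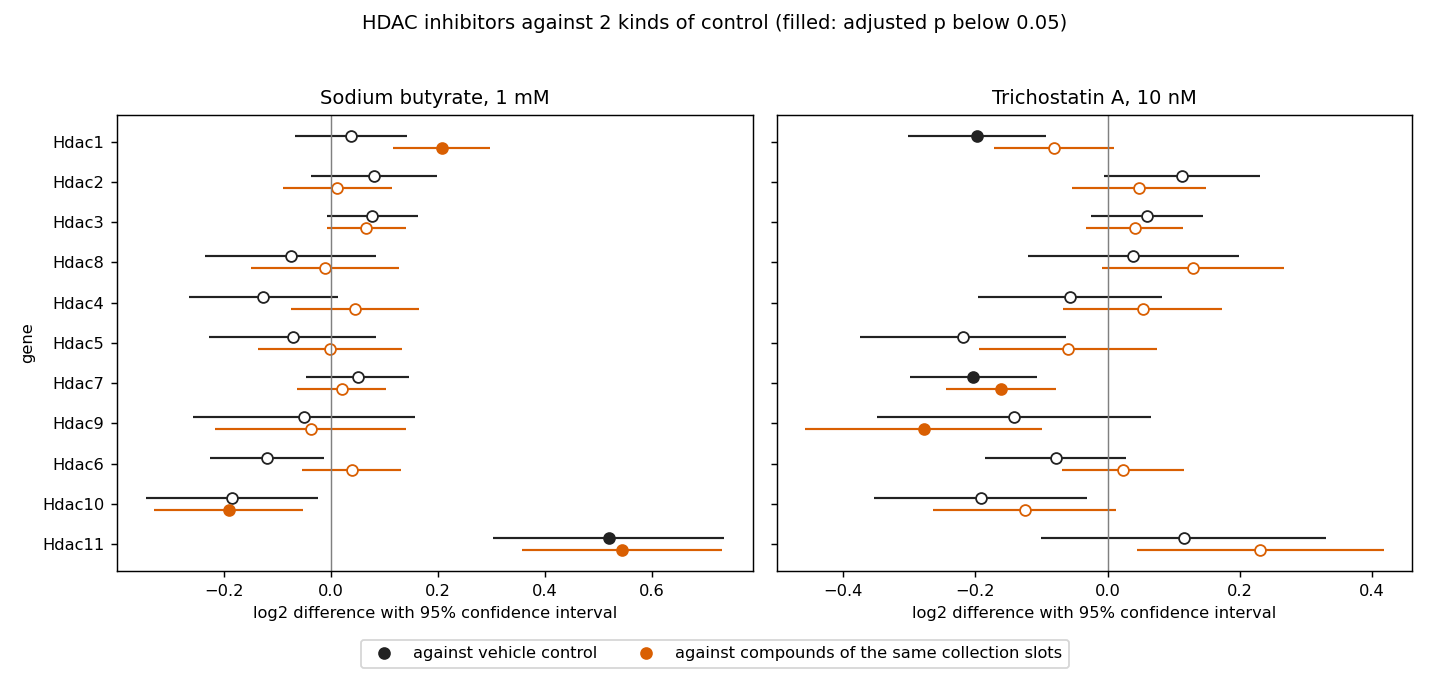
Log2 difference (horizontal axis) with its 95% interval for the 10 members and Hdac11, for sodium butyrate and trichostatin A, against the vehicle control in black and against the nanomolar compounds of the same collection slots in orange, filled where called. Hdac7 is below 0 with trichostatin A against both controls, and Hdac11 lies at 0.52 and 0.54 with sodium butyrate.

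Hdac11, the class IV enzyme, stands outside the rule and was in a list of other deacetylases with the sirtuins. It was at 6.50, 6.52 and 6.60 in the vehicle control and at 7.12, 7.07 and 6.98 with sodium butyrate. The groups did not overlap, and Hdac11 rose by 0.52 (SE 0.106, 95% interval 0.30 to 0.73; adjusted p 0.000196), which is 1.43-fold. Within the days it rose by 0.62, 0.55 and 0.38. Against the nanomolar compounds of its slots it was higher by 0.54, with an adjusted p of 1.89e-05. A high level was not particular to sodium butyrate: Hdac11 was at a mean of 6.96 with DOP, collected in the same slots. In STHdhQ7 cells it was at a mean of 7.10, higher than in the STHdhQ111 control by 0.56 (adjusted p 2.23e-05). With trichostatin A Hdac11 was at 6.73, 6.58 and 6.66, and its log2 difference of 0.11 had an adjusted p of 0.534. Against the nanomolar compounds of the trichostatin A slots the difference was 0.23 (adjusted p 0.0897). It passed there with only the samples compared (adjusted p 0.0301). Hdac11 was higher with sodium butyrate than with trichostatin A by 0.40, with an adjusted p of 0.00506.

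Of the 8 other deacetylases 1 rose and 2 fell with sodium butyrate, beside 19.6% and 17.8% of all genes, with a median of 0.11 beside 0.02 over all genes tested. With no variance trend in the fit 2 rose. Sirt1 fell by 0.25 (adjusted p 0.00064) and Sirt7 by 0.19 (adjusted p 0.0288). The Sirt7 call was lost without vehicle replicate 1 (adjusted p 0.0685), vehicle replicate 3 (0.124), sodium butyrate replicate 2 (0.143) or sodium butyrate replicate 3 (0.109), and with only the samples compared (0.0814). With trichostatin A 0 of the 8 were called by limma. Of the 8, 2 were higher and 2 lower with sodium butyrate against the nanomolar compounds, beside 17.0% and 13.8% of all genes. Besides Hdac11 these were Sirt2, higher by 0.16 (adjusted p 0.0102), Sirt1, lower by 0.18 (adjusted p 0.00422), and Sirt7, lower by 0.25 (adjusted p 0.00218). The Sirt2 call was lost without sodium butyrate replicate 2 (adjusted p 0.116). With trichostatin A 1 was higher and 0 lower there, beside 8.08% and 6.32%. It was Sirt3, at 0.16 (adjusted p 0.0284), and its call was lost without trichostatin A replicate 1 (0.177) or 2 (0.0769), fingolimod phosphate replicate 2 (0.054) or haloperidol replicate 1 (0.0575), and with only the samples compared (0.106). Sirt2 and Sirt3 were named after their values were seen.

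The subunits of the corepressor complexes that hold the class I enzymes made a list of 36 genes, of which 35 were tested. With sodium butyrate 4 of 35 rose and 7 fell, beside 19.6% and 17.8% of all genes tested, and their median log2 difference was 0.00. A count near the share over all genes is no result about a list. Rcor2, a CoREST subunit, rose by 0.65 (SE 0.101; adjusted p 3.37e-06), and Tbl1xr1, a subunit of the NCoR complex, by 0.43 (adjusted p 2.47e-05). Ncor1, the scaffold of that complex, fell by 0.32 (adjusted p 3.83e-05), and the NuRD subunit Chd3 fell by 0.30 (adjusted p 0.00383). The count of 7 became 4 without vehicle replicate 1 and 4 without sodium butyrate replicate 1, and 4 when only the samples compared were fitted. With trichostatin A 0 rose and 5 fell, beside 6.41% and 6.68% of all genes, with a median of -0.06, and Chd3 fell by 0.29 (adjusted p 0.016). The Chd3 call was lost without vehicle replicate 1 (adjusted p 0.0911), trichostatin A replicate 1 (adjusted p 0.142) or trichostatin A replicate 2 (adjusted p 0.0859), and with only the samples compared (adjusted p 0.0533). This count of 5 became 2 without vehicle replicate 1, 1 without vehicle replicate 2, 0 without trichostatin A replicate 1 and 2 without replicate 2, and 1 when only the samples compared were fitted. Against the nanomolar compounds 4 subunits were higher and 5 lower with sodium butyrate, beside 17.0% and 13.8% of all genes, and 2 higher and 3 lower with trichostatin A, beside 8.08% and 6.32%. That 5 became 3 without sodium butyrate replicate 1 or 3. With trichostatin A the 2 higher became 0 without its replicate 1, and 1 without its replicate 3, fingolimod phosphate replicate 3 or haloperidol replicate 1 or 2, and also with only the samples compared, and the 3 lower became 0 without trichostatin A replicate 1.

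Histone acetyltransferases add the groups that the deacetylases remove. Of 13 tested, 1 rose and 7 fell with sodium butyrate, beside 19.6% and 17.8% of all genes, with a median of -0.21. Ep300 fell by 0.55 (SE 0.0810; adjusted p 1.5e-06) and Kat6a by 0.49 (adjusted p 3.49e-07), while Kat8 rose by 0.18 (adjusted p 0.0118). Without vehicle replicate 1 Kat8 differed by 0.14, with an adjusted p of 0.0902, and with only the samples compared its adjusted p was 0.137. With trichostatin A 0 rose and 2 fell, beside 6.41% and 6.68% of all genes, with a median of -0.11, and Kat6a fell by 0.40 (adjusted p 4.89e-05). That count of 2 became 1 without vehicle replicate 1, vehicle replicate 2 or trichostatin A replicate 1, and 5 without vehicle replicate 3. It was 1 with only the samples compared. Sodium butyrate gave 1 higher and 5 lower against the nanomolar compounds, beside 17.0% and 13.8% of all genes, and trichostatin A 0 higher and 1 lower, beside 8.08% and 6.32%. There Ep300 differed by -0.25 with sodium butyrate (adjusted p 0.00572). Without sodium butyrate replicate 1 it differed by -0.19 (adjusted p 0.0864), and the count of 5 became 0. It was 3 without nicotinamide replicate 3. The 1 lower with trichostatin A became 0 without its replicate 1.

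Bromodomain proteins bind acetylated lysines. Of 8 tested, 0 rose and 6 fell with sodium butyrate, beside 19.6% and 17.8% of all genes, with a median of -0.23, and the count stayed at 6 without any 1 sample. Brd1 fell by 0.31 (adjusted p 1.79e-05) and Brd8 by 0.29 (adjusted p 3.41e-05). With trichostatin A 0 rose and 3 fell, beside 6.41% and 6.68% of all genes, with a median of -0.13, and Brd2 fell by 0.18 (adjusted p 0.00299). That 3 became 1 without vehicle replicate 1, vehicle replicate 2 or trichostatin A replicate 1. With only the samples compared it was 0, and Brd2 had an adjusted p of 0.0966. With sodium butyrate 5 were lower against the nanomolar compounds, beside 13.8% of all genes, and 2 with trichostatin A, beside 6.32%, and 0 were higher with either. With only the samples compared 1 was higher with sodium butyrate. The 2 with trichostatin A became 1 without its replicate 1, without fingolimod phosphate replicate 1 or 2 or haloperidol replicate 3, and with only the samples compared.

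The partners of class IIa enzymes are the MEF2 factors they bind, the kinases that phosphorylate them and the 14-3-3 proteins that hold them in the cytoplasm. Of 20 named 18 were tested. With sodium butyrate 3 rose and 5 fell, beside 19.6% and 17.8% of all genes, with a median of -0.02. Prkd2 fell by 0.39 (adjusted p 1.58e-06) and Sik2 by 0.37 (adjusted p 4.73e-05), while Sik1 rose by 0.29 (adjusted p 0.00155) and Sfn, a 14-3-3 gene, by 0.16 (adjusted p 0.0236). The Sfn call was lost without vehicle replicate 1 (0.0937) or 2 (0.0852), without sodium butyrate replicate 2 (0.0871) or 3 (0.144), and with only the samples compared (0.0535). Without vehicle replicate 1 the counts were 1 higher and 3 lower, and without vehicle replicate 2 or sodium butyrate replicate 1 they were 3 lower. With only the samples compared 1 rose. With trichostatin A 0 rose and 3 fell, beside 6.41% and 6.68% of all genes, with a median of -0.05, and 1 fell without vehicle replicate 1 or trichostatin A replicate 1. Sik3 fell by 0.21 (adjusted p 0.00354). With only the samples compared 0 fell, and Sik3 had an adjusted p of 0.0606. Against the nanomolar compounds 2 were higher and 3 lower with sodium butyrate, beside 17.0% and 13.8% of all genes, and 0 higher and 2 lower with trichostatin A, beside 8.08% and 6.32%. With sodium butyrate the 2 became 1 without its replicate 1 or 2, nicotinamide replicate 2 or nortriptyline replicate 3, and the 3 became 1 without its replicate 1 or 3 or nicotinamide replicate 1. The 2 lower with trichostatin A became 1 without its replicate 1 or 3, fingolimod phosphate replicate 2 or 3 or haloperidol replicate 1 or 3, and with only the samples compared.

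A list of 6 genes known to respond to deacetylase inhibitors was read in the same way. With sodium butyrate 4 rose and 1 fell, beside 19.6% and 17.8% of all genes, with a median log2 difference of 0.63. Clu rose from a mean of 5.23 to 6.93, by 1.70 (SE 0.0811; adjusted p 3.43e-18), and the linker histone gene H1f0 from 11.41 to 12.12, by 0.71 (adjusted p 7.3e-08). Txnip rose by 0.77 (adjusted p 7.95e-07). Cdkn1c rose by 0.54 (adjusted p 0.0175), and its call was lost without vehicle replicate 1 (0.0606), vehicle replicate 2 (0.0834) or sodium butyrate replicate 1 (0.0577). Cdkn1a, which encodes the cell cycle inhibitor p21, fell by 0.46 (adjusted p 0.00129), and Gsn was not called at 0.08 (adjusted p 0.47).

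With trichostatin A 2 of these 6 rose and 2 fell, beside 6.41% and 6.68% of all genes, with a median of -0.01. Txnip at 0.11 (adjusted p 0.551) and Cdkn1c at -0.14 (adjusted p 0.683) were not called. Clu rose by 0.54 (adjusted p 1.54e-05) and H1f0 by 0.38 (adjusted p 0.00289), but without trichostatin A replicate 1 H1f0 differed by 0.24, with an adjusted p of 0.102. Cdkn1a fell by 0.58 (adjusted p 0.000414) and Gsn by 0.29 (adjusted p 0.0171). The Gsn call was lost without vehicle replicate 3 (adjusted p 0.0815) or trichostatin A replicate 2 (adjusted p 0.0932). Against the nanomolar compounds Clu was higher by 1.69 with sodium butyrate and by 0.54 with trichostatin A, H1f0 by 0.72 and 0.45, and Cdkn1a lower by 0.61 and 0.63. Clu was higher with sodium butyrate than with trichostatin A by 1.16 (adjusted p 3.27e-13).

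**Figure D3:**
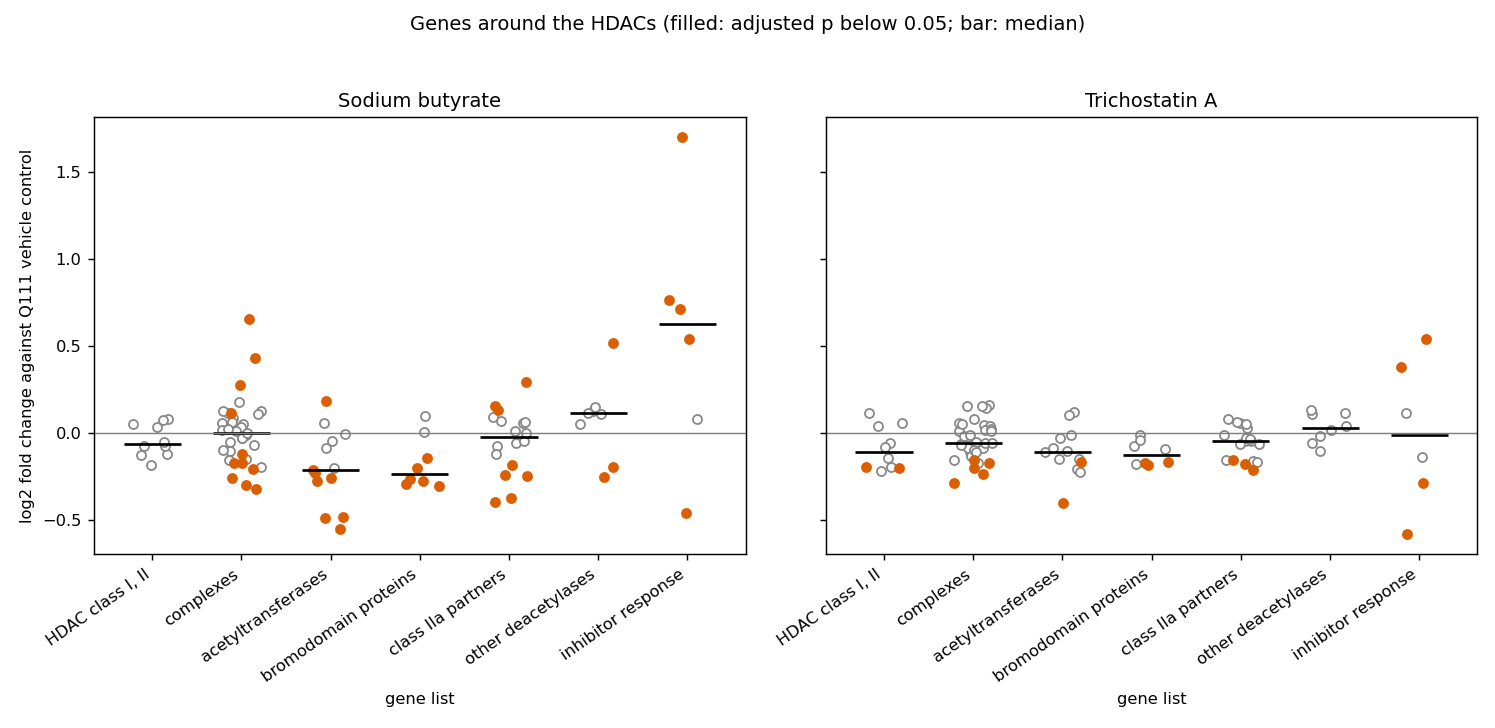
Log2 difference from the STHdhQ111 vehicle control (vertical axis) for each gene of 7 lists, with sodium butyrate and with trichostatin A, points filled where called and bars for medians. The inhibitor response list has its median at 0.63 with sodium butyrate and at -0.01 with trichostatin A, and the highest point is Clu at 1.70.

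The STHdhQ7 vehicle control was compared with the STHdhQ111 one, which sets the wild type line beside the knock-in line. Of all genes tested 55.8% were called, 29.2% higher and 26.6% lower in STHdhQ7 cells. Of the members 7 of 10 were called, 5 higher and 2 lower. The median absolute log2 difference was 0.31 over the members and 0.19 over all genes tested. The samples of the called members did not overlap, and these calls held without any 1 sample.

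Hdac9 (ENSMUSG00000004698, chr12:34047580-34917095, minus strand) was at 3.27, 3.23 and 3.27 in STHdhQ111 and at 4.90, 4.93 and 4.90 in STHdhQ7 cells. It differed more than any other member, by 1.66 (SE 0.102, 95% interval 1.45 to 1.86; adjusted p 5.77e-17). Within the days it differed by 1.63, 1.70 and 1.63. The deposited values of genes near the table's floor hardly vary between samples, so a difference of such a gene may be understated. Hdac9 lies above that floor, and its pooled residual SD of 0.133 was the largest of the members. Whether its difference is understated was not tested.

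Hdac4 (ENSMUSG00000026313, chr1:91928779-92195699, minus strand), also of class IIa, was at 7.86, 7.76 and 7.69 in STHdhQ111 and at 8.26, 8.34 and 8.25 in STHdhQ7 cells. All STHdhQ7 samples were higher, by 0.51 (SE 0.0686; adjusted p 4.69e-08), and within the days by 0.40, 0.58 and 0.56. Hdac5, at 10.67, 10.49 and 10.39 in STHdhQ7 cells, was higher by 0.38 (SE 0.0769; adjusted p 5.46e-05), and by 0.56, 0.41 and 0.18 within the days. Hdac7, at 9.80, 9.91 and 9.88, was higher by 0.34 (SE 0.0475; adjusted p 8.51e-08). Thus all 4 class IIa genes were higher in STHdhQ7 cells.

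In class I the directions were mixed. Hdac8 (ENSMUSG00000067567, chrX:102284639-102505359, minus strand), whose product deacetylates the cohesin subunit SMC3, was at 7.04, 7.02 and 6.87 in STHdhQ111 and at 6.48, 6.50 and 6.56 in STHdhQ7 cells. It was lower in STHdhQ7 cells, at a log2 difference of -0.46 (SE 0.0787; adjusted p 3.86e-06), and within the days at -0.55, -0.52 and -0.32. Hdac1, at 10.48, 10.45 and 10.47 in STHdhQ7 cells, differed by -0.29 (SE 0.0518; adjusted p 1.16e-05), and by -0.29 when summed with Gm10093, with an adjusted p of 2.4e-06. Hdac2 (ENSMUSG00000019777, chr10:36974544-37001889, plus strand), at 10.51, 10.42 and 10.47, was higher than at 10.26, 10.18 and 10.23, with an adjusted p of 0.000431. Hdac3, the enzyme of the NCoR complex, differed by -0.07 (adjusted p 0.128). In class IIb, Hdac6 differed by -0.06 (adjusted p 0.352) and Hdac10 by 0.01 (95% interval -0.15 to 0.17).

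Beside 29.2% of all genes higher and 26.6% lower, of the corepressor subunits 7 were higher and 17 lower of 35 in STHdhQ7 cells, with a median of -0.15 beside 0.00 over all genes tested. Of the class IIa partners 5 were higher and 11 lower of 18, with a median of -0.21. Acetyltransferases gave 3 higher and 3 lower of 13, bromodomain proteins 1 higher and 4 lower of 8, and other deacetylases 3 higher and 2 lower of 8. The inhibitor response list gave 3 higher and 2 lower of 6.

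Promoters are shown for Hdac4 and Hdac9, the members with the largest differences between the lines, which moved the same way there. From a table of RefSeq promoters on build GRCm38.p6, 11 entries for 7 of the 10 members were used. No entry was used for Hdac1, Hdac3 or Hdac10, which does not show that the table lacks them. The 250 bases before the start were searched on both strands for the GC box with the letters GGGCGG and for the CCAAT box. They were also searched for the E box with the letters CACGTG, for the core TGACG of the cyclic AMP response element, and for the TATA box with the letters TATAAA. Capitals mark the matches, which are descriptions of letters and not of sites in use. Hdac4 lies on the minus strand at chr1:92180342-92180591, and the first start of Hdac9 on the minus strand at chr12:34917096-34917345.
Hdac4: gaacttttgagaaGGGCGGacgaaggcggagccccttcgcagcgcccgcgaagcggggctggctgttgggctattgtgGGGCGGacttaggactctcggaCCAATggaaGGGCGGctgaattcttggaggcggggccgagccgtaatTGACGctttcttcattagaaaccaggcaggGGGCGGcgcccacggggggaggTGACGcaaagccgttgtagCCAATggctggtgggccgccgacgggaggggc
Hdac9: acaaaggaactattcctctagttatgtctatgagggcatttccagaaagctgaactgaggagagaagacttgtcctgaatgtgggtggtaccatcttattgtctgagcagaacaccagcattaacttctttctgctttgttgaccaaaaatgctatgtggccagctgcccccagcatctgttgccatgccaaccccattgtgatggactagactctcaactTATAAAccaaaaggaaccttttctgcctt
The Hdac4 promoter held 4 GGGCGG, 2 CCAAT and 2 TGACG, with 65.2% G and C and 23 CpG. The Hdac9 one held 1 TATAAA, with 44.4% G and C and 0 CpG, and no matches overlapped in either. A second Hdac9 start, at chr12:34528890-34529139, held none of the motifs, with 43.6% G and C and 2 CpG. The Hdac4 start, at 92180341, lies inside the annotated gene, which reaches to 92195699. Of all 32851 promoters of the same length 32.7% held GGGCGG, 33.8% CCAAT, 6.02% CACGTG, 17.8% TGACG and 12.4% TATAAA. Among the other members Hdac6 held 4 GGGCGG and 2 CCAAT, Hdac5 held 1 and 2, and Hdac8 held 2 overlapping CCAAT and 1 TATAAA. Hdac2 held 1 GGGCGG, as did the first of 4 Hdac7 starts.

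The 12 other compounds were each compared with the STHdhQ111 vehicle control, sharing its 3 samples. Selisistat alone was collected in the same time slot as that control on each day. DKI and cyproheptadine were so in replicates 2 and 3, but not in replicate 1. The remaining compounds were in another slot on every day, so they differ from the control in slot as well as in compound. Over 10 members and 12 compounds 24 of 120 tests were called, 4 higher and 20 lower. Over all genes tested 15.6% of such tests were called, 7.10% higher and 8.51% lower. When a replicate number was left out of every group, the count of 24 became 15 without replicate 1, 18 without replicate 2 and 11 without replicate 3. Over all genes the called tests then went from 25117 to 13731, 17770 and 13726. DKI called 6 members, 2 higher and 4 lower, beside 42.3% of all genes, 20.4% higher and 21.9% lower. Meclizine called 5, 1 higher and 4 lower, beside 26.8%, with 13.1% higher and 13.6% lower. Cyproheptadine called 4 beside 35.6%. Loxapine called 3 beside 21.9%, pizotifen 2 beside 17.9% and nicotinamide 2 beside 10.4%. DOP called 1 beside 20.1%, and cysteamine 1 beside 7.83%. With limma, nortriptyline called 0 beside 3.83% (3 members at unadjusted p under 0.05), selisistat 0 beside 0.515% (2 members), fingolimod phosphate 0 beside 0.0597% (3 members) and haloperidol 0 beside 0% (2 members).

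Hdac1 was called lower in 7 of these 12 comparisons, and Hdac6 in 7. Since all 12 share the vehicle samples, whose mean ranked 2 of 16 conditions from the top for both genes, these are not 7 separate results. With DKI it was at 10.16, 10.37 and 10.32, below every vehicle sample, and fell by 0.47 (SE 0.0524; adjusted p 1.99e-09), or by 0.45 when summed with Gm10093. With meclizine it was at 10.38, 10.42 and 10.40 and fell by 0.35 (SE 0.0518; adjusted p 2.28e-06), also by 0.35 when summed. It fell by 0.28 with loxapine (adjusted p 0.000151), and by 0.18 when summed (adjusted p 0.00721). With DOP it fell by 0.25 (adjusted p 0.000587), and by 0.17 when summed (adjusted p 0.00879). Gm10093 alone differed by 0.00 with loxapine and by -0.03 with DOP. With pizotifen Hdac1 fell by 0.25 (adjusted p 0.000578), and by 0.20 when summed (adjusted p 0.00307). With cyproheptadine it fell by 0.18 (adjusted p 0.00535), and by 0.16 when summed (adjusted p 0.00818). With nicotinamide it fell by 0.19 (adjusted p 0.0156). That call was lost without vehicle replicate 1 (adjusted p 0.0721), without nicotinamide replicate 3 (adjusted p 0.12) and when summed with Gm10093, at -0.11 (adjusted p 0.143).

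Hdac6 with DKI was at 8.99, 9.02 and 9.14, all below the vehicle samples, and fell by 0.31 (SE 0.0532; adjusted p 9.97e-06). With meclizine it fell by 0.21 (adjusted p 0.00208). The other 5 differences were smaller and each call was lost when some single samples were left out. With nicotinamide the difference was -0.19 (adjusted p 0.0163), lost without vehicle replicate 1 (0.0931) or nicotinamide replicate 3 (0.141). With loxapine it was -0.17 (adjusted p 0.0144), lost without vehicle replicate 1 (0.0537), vehicle replicate 3 (0.05) or loxapine replicate 1 (0.0892). Pizotifen gave -0.16 (adjusted p 0.031), lost without vehicle replicate 1 (0.0959), vehicle replicate 3 (0.0927), pizotifen replicate 2 (0.11) or replicate 3 (0.0931). Cyproheptadine gave -0.15 (adjusted p 0.0236), lost without vehicle replicate 1 (0.0603), vehicle replicate 3 (0.0804) or cyproheptadine replicate 1 (0.224). Without cyproheptadine replicate 1 the difference itself was -0.09. With cysteamine the adjusted p was 0.0453, and it rose to between 0.0545 and 0.222 without any 1 of the samples compared. It was 0.0619 with collection time as a further term, 0.052 with no filter on low genes and 0.0591 with each sample shifted by its median.

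Hdac7 fell with meclizine, to 9.25, 9.17 and 9.17, by 0.32 (SE 0.0475; adjusted p 2.45e-06). With cyproheptadine it was at 9.22, 9.25 and 9.14 and fell by 0.31 (adjusted p 3.96e-06), and with DKI it fell by 0.22 (adjusted p 0.000225). The samples of these compounds lay below every vehicle sample. Hdac5 fell with meclizine, to 9.78, 9.84 and 9.68, by 0.37 (SE 0.0769; adjusted p 0.000342), and within the days by 0.34, 0.25 and 0.53.

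The members that rose were Hdac4 and Hdac8. Hdac4 was at 8.32, 8.00 and 8.15 with DKI, above every vehicle sample, and rose by 0.39 (SE 0.0694; adjusted p 1.78e-05). With meclizine it rose by 0.21 (adjusted p 0.0182), a call lost without vehicle replicate 2 (0.0521), vehicle replicate 3 (0.101) or meclizine replicate 1 (0.152). With cyproheptadine it rose by 0.18 (adjusted p 0.0405), a call lost without vehicle replicate 2 (0.0921) or 3 (0.189), or cyproheptadine replicate 1 (0.0823), 2 (0.0989) or 3 (0.0659), and with collection time as a further term (0.0509).

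Hdac8 was at 7.43, 7.32 and 7.35 with DKI, above every vehicle sample, and rose by 0.39 (SE 0.0796; adjusted p 0.000102). Replicates 1 and 3 of DKI were collected on day 3, and against the vehicle sample of the same day the 3 samples were higher by 0.56, 0.29 and 0.48. With loxapine, at 6.80, 6.66 and 6.71, Hdac8 fell by 0.26 (adjusted p 0.017). That call was lost without vehicle replicate 1 (0.089) or 2 (0.0693), or loxapine replicate 2 (0.0893) or 3 (0.0524). Hdac10 fell with DKI by 0.25 (adjusted p 0.01), a call lost without vehicle replicate 3 (0.0597), DKI replicate 1 (0.0581) or DKI replicate 2 (0.0741).

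Among the genes the members work with, beside 20.4% of all genes higher and 21.9% lower, DKI called 2 of the 35 corepressor subunits higher and 15 lower, with a median of -0.14, and meclizine, beside 13.1% and 13.6%, 3 higher and 9 lower, with a median of -0.09. Of the 13 acetyltransferases DKI called 2 higher and 5 lower and meclizine 1 higher and 4 lower. Of the 18 class IIa partners DKI called 2 higher and 7 lower and meclizine 1 higher and 5 lower. Bromodomain proteins gave 0 higher and 3 lower with DKI and 0 higher and 1 lower with meclizine. The inhibitor response list gave 0 higher and 2 lower with each, and the other deacetylases 0 of 8 with each by limma.

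**Figure D4:**
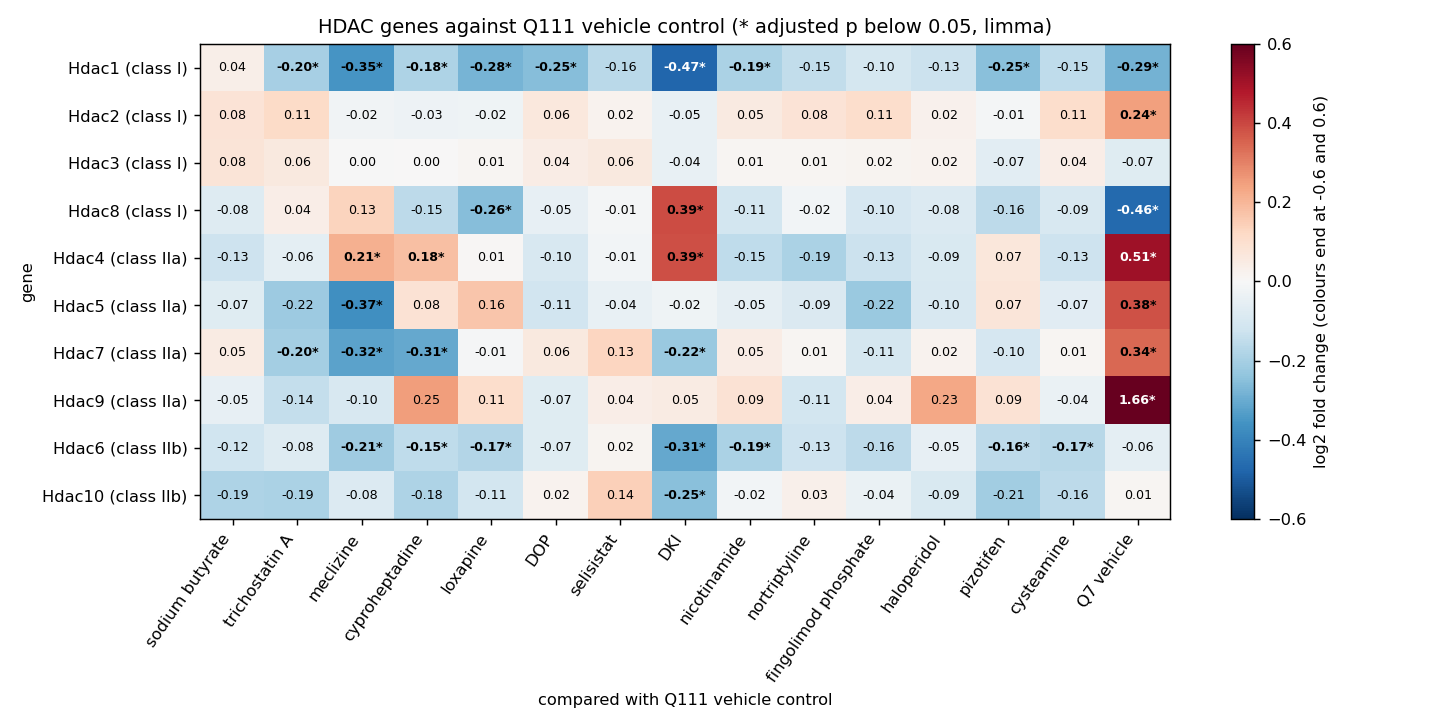
Log2 difference from the STHdhQ111 vehicle control (colour, ending at -0.6 and 0.6, and printed numbers) of the 10 members for 14 compounds and the STHdhQ7 vehicle control, with an asterisk where the adjusted p was below 0.05. Hdac1 and Hdac6 are called lower with 7 of the 12 compounds other than the inhibitors, and Hdac2 and Hdac3 with none.

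The study divided compounds by metabolite data into Group A, with cyproheptadine, loxapine and pizotifen, and Group B, with DKI and meclizine. After the values had been seen, the 6 samples of Group B were compared with the 9 of Group A, with no vehicle sample in the comparison. Of all genes tested 41.3% were called, and 7 of 10 members, 2 higher and 5 lower in Group B. The median absolute log2 difference was 0.15 over the members and 0.09 over all genes tested.

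Hdac8 was at 7.07, 7.08 and 7.18 with meclizine and at 7.43, 7.32 and 7.35 with DKI. It was at 6.87, 6.78 and 6.80 with cyproheptadine, at 6.80, 6.66 and 6.71 with loxapine and at 6.79, 6.85 and 6.81 with pizotifen. The groups did not overlap, and Hdac8 was higher in Group B by 0.45 (SE 0.0509, 95% interval 0.35 to 0.56; adjusted p 2.75e-09). The other called members overlapped between the groups. Hdac4 was higher by 0.22 (adjusted p 0.000132), and Hdac5 lower by 0.30 (adjusted p 4.09e-06), its 3 lowest samples being those of meclizine. Hdac1 was lower (adjusted p 4.84e-05), by 0.22 when summed with Gm10093, Hdac7 by 0.13 (adjusted p 0.000471) and Hdac6 by 0.10 (adjusted p 0.0171). The Hdac6 call was lost without DKI replicate 1 (adjusted p 0.0627). Hdac9 was lower by 0.17 (adjusted p 0.0325). Its call was lost without meclizine replicate 2 (0.0823) or 3 (0.0518), cyproheptadine replicate 2 (0.0501), loxapine replicate 1 (0.0747), DKI replicate 2 (0.0723), or pizotifen replicate 1 (0.0741) or 3 (0.0848), and with no filter on low genes (0.0568).

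**Figure D5:**
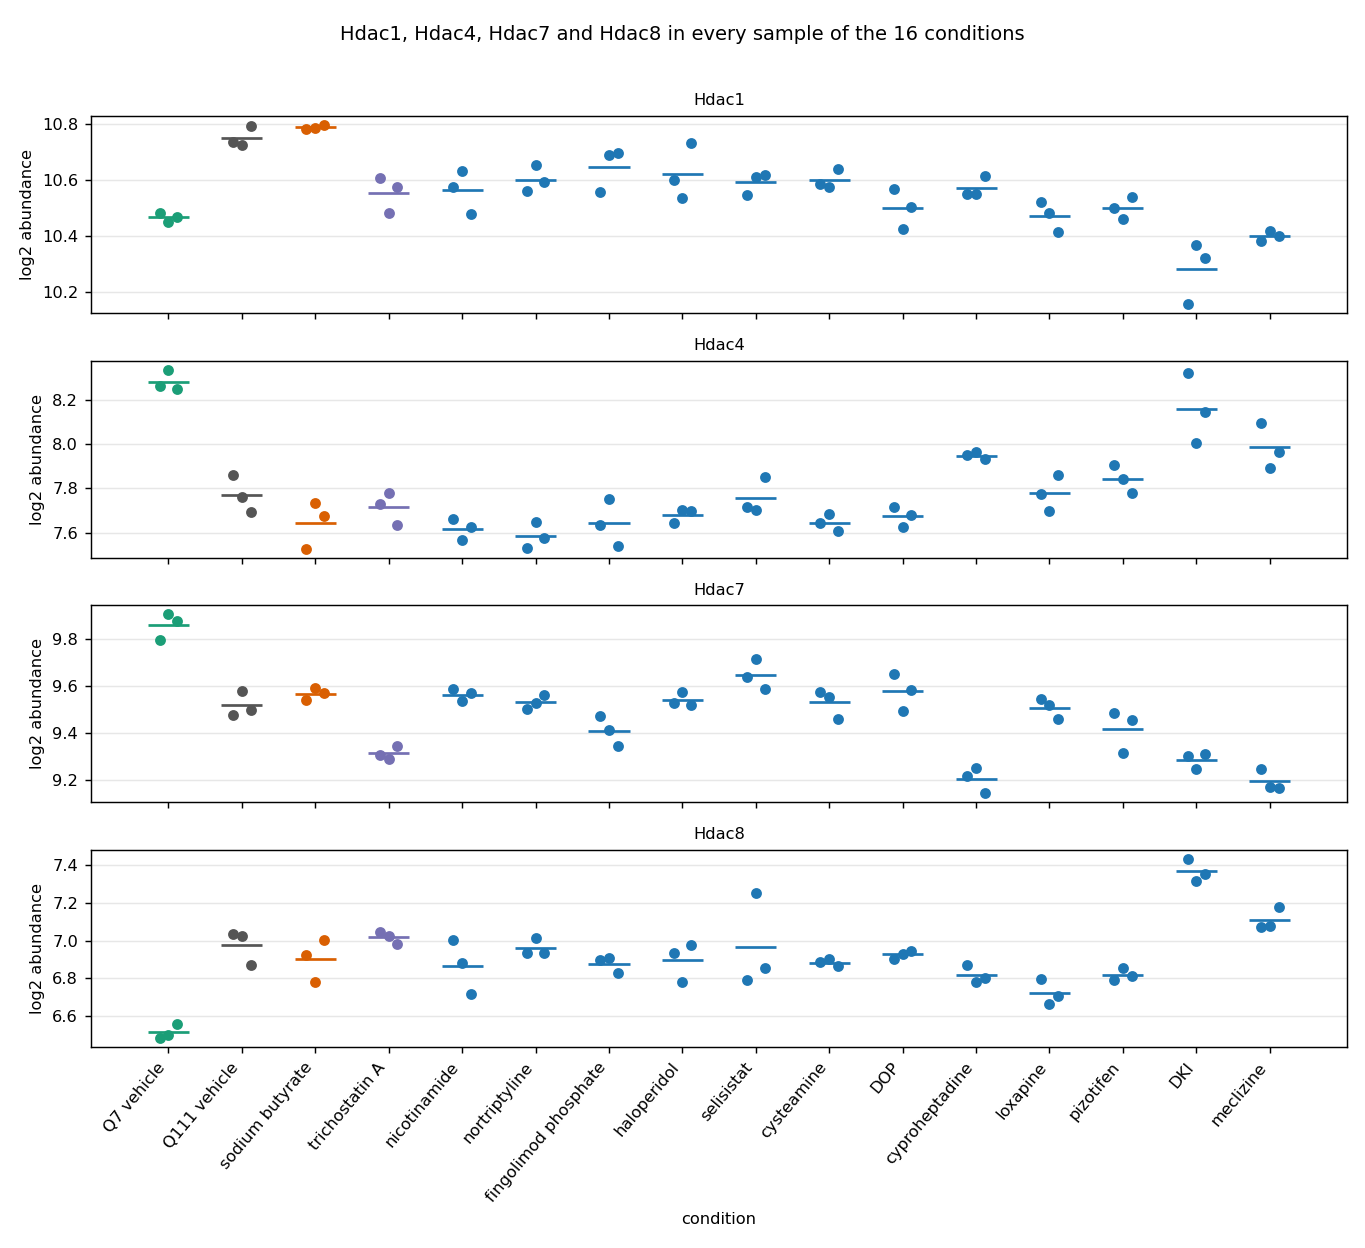
Log2 abundance (vertical axis) of Hdac1, Hdac4, Hdac7 and Hdac8 in each of the 3 samples of all 16 conditions, with bars for means. Hdac8 is highest with DKI, between 7.32 and 7.43, and lowest in STHdhQ7 cells, between 6.48 and 6.56.

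Across the means of the 16 conditions Hdac9 had the largest standard deviation, 0.42, followed by Hdac4 at 0.20 and Hdac8 at 0.18. Hdac2 at 0.07 and Hdac3 at 0.04 had the smallest. Over the 15 STHdhQ111 conditions that of Hdac9 was 0.12. Hdac3 samples of all conditions lay between 9.48 and 9.73. Condition means of Hdac1 ran from 10.28 with DKI to 10.79 with sodium butyrate, and those of Hdac9 from 3.11 with trichostatin A to 4.91 in STHdhQ7 cells.

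Likeness was measured as Pearson's r between condition means, a description over points that share collection days and, but for STHdhQ7, a cell line. Over 16 conditions the genes most like Hdac9 were Cdh2 at 0.986, Epha4 at 0.986 and Ano3 at 0.984, and over the 15 STHdhQ111 conditions those r were 0.788, 0.828 and 0.787. Most like Hdac4 over 16 conditions were Piezo1 at 0.9665, Akap1 at 0.962 and Ppm1a at 0.962. Those most like Hdac8 were Polr3c at 0.948, Ubxn2b at 0.9455 and Slc7a2 at 0.924. Over the 15 STHdhQ111 conditions other genes came first. For Hdac4 they were Rps6ka2 at 0.9785, Ppm1h at 0.965 and 6330416G13Rik at 0.963. For Hdac8 they were Lztr1 at 0.945, Arhgap33 at 0.938 and Rgn at 0.936. Between members, Hdac2 and Hdac4 had an r of 0.0110 over 16 conditions and -0.808 over the 15 of STHdhQ111 cells. For Hdac4 and Hdac7 it was -0.0578 and -0.717, and for Hdac1 and Hdac4 -0.652 and -0.702. For Hdac5 and Hdac9 it was 0.752 and 0.571.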

How the data were processed

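The deposited log2 abundances, made by the authors from poly(A) directional libraries read as single 50-base ends, were used as given. The authors trimmed reads with Trimmomatic 0.36, quantified them with RSEM on GRCm38.p5 and named DESeq2, and the transformation behind the values is not stated. No comparison columns of the authors were used. The values are not divided by gene length, and depth is unknown.

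Genes with a symbol and a mean of at least 1 were fitted with limma 3.58.1 in R 4.3.3, over all 48 samples, with terms for group and collection day and a variance trend on abundance (30 residual degrees of freedom). Tests were two-sided, with Benjamini-Hochberg adjustment over the 13409 genes tested in each comparison, and called means an adjusted p below 0.05. An exact permutation test of 3 against 3 samples cannot go below p = 0.1. Figures were drawn with Python 3.11.15 and matplotlib 3.10.9.

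The members and lists were chosen with earlier results of these data known. Named are all members, Hdac11, the genes of the inhibitor response list and, from each other list, up to 2 called genes that sodium butyrate raised most and 2 that it lowered most, and up to 1 of each for trichostatin A. Marker genes were named after their values were seen. For the 3 members with the largest standard deviation over conditions, the 3 genes with the highest correlation are named. The comparison of Group B with Group A, the sum with Gm10093, the correlations over STHdhQ111 conditions alone, the share of a marker sum held by 1 gene, and the alternatives for list counts against the nanomolar compounds and for genes named outside the rule were added after the data were seen.

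By the labels, replicate numbers match collection days except in cyproheptadine and DKI, whose replicate 1 was collected on day 3. Over genes, the differences of the 3 sodium butyrate and vehicle samples from their group means correlated at -0.167, -0.158 and -0.317 by replicate, and those of trichostatin A at -0.210, 0.0682 and -0.199.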

Additional observations from a re-analysis of the deposited data

How the results depend on the processing

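No difference called in either fit changed sign under any alternative. Of the 935 differences called in neither fit when 1 sample was left out, 84 changed sign, as did 2 of 140 with only the samples compared and 1 of 144 with a shift of each sample by its median. Hdac10 between the lines, at 0.01, ranged from -0.07 to 0.07. With a replicate block in place of the day term, 189 of 190 member tests kept their side of the threshold, and Hdac9 in cyproheptadine passed (0.26, adjusted p 0.0419). The counts of called members were then 0 for sodium butyrate and 2 for trichostatin A against the vehicle control, 2 between the inhibitors, 2 and 2 against the nanomolar compounds of the same slots, 7 between the lines, 7 between Groups B and A, and 25 over the other 12 compounds. When only the samples compared were fitted, the count for trichostatin A against the vehicle control went from 2 to 0, that for sodium butyrate against those compounds from 2 to 1 (Hdac10, adjusted p 0.0729) and that for trichostatin A against its slots from 2 to 1 (Hdac9, adjusted p 0.131). Fewer samples leave fewer degrees of freedom there. Over all 190 member tests 5 lost their call in that fit, among them Hdac6 in cyproheptadine (adjusted p 0.193), and 4 gained one, which were Hdac9 in cyproheptadine (0.27, adjusted p 0.024), Hdac5 in loxapine (0.16, adjusted p 0.042), Hdac5 in fingolimod phosphate (-0.22, adjusted p 0.0149) and Hdac1 in cysteamine (-0.15, adjusted p 0.0415). A minimum mean of 5 took the count for trichostatin A against its slots to 1 as well, since Hdac9 was then not tested. For the same reason its calls between the lines and between Groups B and A were absent, which left 43 of the 46 member calls. Collection time as a further term ended 2 of the 46 member calls (Hdac4 in cyproheptadine, adjusted p 0.0509, and Hdac6 in cysteamine, adjusted p 0.0619), and so did no filter on low genes (Hdac6 in cysteamine, adjusted p 0.052, and Hdac9 between Groups B and A, adjusted p 0.0568). Without the day term trichostatin A called 3 members, with Hdac5 at an adjusted p of 0.0421. Hdac9 in cyproheptadine (0.26, adjusted p 0.0357) and Hdac10 in pizotifen (-0.21, adjusted p 0.0498) passed there as well. A summed level for Hdac1 and Gm10093, chosen after seeing the data, kept 18 of 19 results.

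Leaving out 1 sample gave 0 to 1 called members for sodium butyrate and 1 to 3 for trichostatin A against the vehicle control, 2 to 2 between the inhibitors, 1 to 2 and 0 to 2 against the nanomolar compounds of the same slots, 7 to 7 between the lines, 6 to 7 between Groups B and A and, leaving out a replicate number in all groups, 11 to 18 over the other compounds, beside 24 in full. The cause was not tested. With 3 samples a group and no counts, small differences of the members cannot be bounded further. This holds for Hdac9 in particular, whose pooled residual SD of 0.133 was the largest of the members.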
